A study of Homo sapiens with 10 samples.

Results

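The 33 genes described here carry glucose into the cell and through glycolysis, lactate and pyruvate handling and the pentose phosphate pathway. They were taken by symbol from 28281 symbols in the count tables of 2 human lung adenocarcinoma lines, and all 33 were present in both tables. They comprise 2 glucose transporters, 9 genes of the preparatory steps of glycolysis, 3 bifunctional regulators of phosphofructokinase, 6 genes of the later steps, 4 of lactate and its export, 5 of the pyruvate dehydrogenase switch, 3 of the pentose phosphate pathway and the carbonic anhydrase gene CA9. Poly(A) RNA was sequenced from A549 (3 wild-type and 3 APEX1 knockout libraries) and NCI-H1944, called H1944 (2 and 2), abbreviated WT and KO. APEX1 encodes APE1, an endonuclease of base excision repair, and the study's title ties APE1 to DNA G-quadruplexes at urea cycle genes. A549 was grown in DMEM and H1944 in RPMI1640 with added sodium pyruvate, each with fetal bovine serum, so line and medium cannot be told apart. The labels do not say how the knockouts were made, whether they are clones or pools, or whether replicates are separate cultures, so the p-values cover the spread among the sequenced libraries alone, and that spread may be technical. The A549 KO libraries are headed by the numbers 16, 65 and 66 with no genotype, and their place in the KO group follows by exclusion from the labels.

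Glucose enters most cells through facilitative transporters of the SLC2A family and is trapped as glucose 6-phosphate by hexokinases. Glycolysis then yields pyruvate, which is either reduced to lactate and exported or oxidised in mitochondria, a choice set partly by pyruvate dehydrogenase kinases, while the pentose phosphate pathway branches off early and supplies NADPH and ribose. Many tumours, lung adenocarcinoma among them, are known for high glucose uptake, and several of these genes are textbook targets of the hypoxia-inducible factors and of MYC.

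Library totals ran from 18314224 to 30219850 counts. APEX1 (chromosome 14, 20455226 to 20457767, RefSeq on GRCh38.p14) measured 244 and 243 CPM in WT and 87.0 and 87.6 CPM in KO in H1944 and 167, 254 and 237 CPM in WT 1, 2 and 3 and 60.1, 62.9 and 108 CPM in KO 16, 65 and 66 in A549, so its mRNA was lower in each KO library and was not lost (CPM, counts scaled to library size). In A549, WT 1 and KO 65 held 0.284% and 0.337% of their counts in ribosomal RNA genes, against 6.45% to 14.2% in the other 4. The ribosomal RNA gene RNA28SN4 had 4839 and 5945 counts in WT 1 and KO 65 and 0 in the other 4. It defines 2 library sets, and A549 values are also given within these sets. Whether counting, annotation or RNA content sets them apart was not tested. The 5 epithelial markers summed to 8868 to 22391 CPM in A549 WT, 9000.0 to 22134 in A549 KO, 9782 to 9936 in H1944 WT and 17494 to 17891 in H1944 KO. Of these, KRT8 and KRT18 were higher in H1944 KO, whereas EPCAM measured 71.5 and 68.8 CPM in WT and 1.13 and 0.771 CPM in KO and CDH1, E-cadherin, 211 and 211 CPM in WT and 7.82 and 8.21 CPM in KO. Markers of leukocytes, fibroblasts, endothelium and red cells, each class summed on its own, came to at most 16.9 CPM in any library. The part of these differences in the values below was not tested. In bulk RNA, fewer cells of a type and less RNA per cell cannot be told apart.

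In H1944 the largest changes among the 33 genes lay at glucose uptake, at its phosphorylation and in single isozymes further down, while most of the abundant enzymes moved little. SLC2A3, SLC2A1, HK2, HK1, ENO2 and PDK2 rose at least 2-fold and PDK4 fell at least 2-fold. Of 32 members tested, 14 rose, 13 fell and 5 did not pass at an adjusted p under 0.05. Over all genes 33.2% rose and 33.9% fell, 67.1% together, so the number of members called says little by itself. At 2-fold or more, 6 members rose and 1 fell, beside 10.1% and 11.3% of all genes (21.4% together). WT and KO libraries did not overlap in 82.5% of all genes, 41.1% with KO higher and 41.4% with KO lower. Of the 27 called, 17 had a log2 change smaller than 0.5 in size, a count that was not made over all genes. The quartiles of the 32 tested were -0.16 and 0.37, beside -0.45 and 0.42 over all genes. The median over the 32 was 0.0089, beside -0.0065 over all genes. The members' share of all counts was 3.02% and 3.03% in the WT libraries, and 3.26% and 3.23% in KO.

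**Figure D1:**
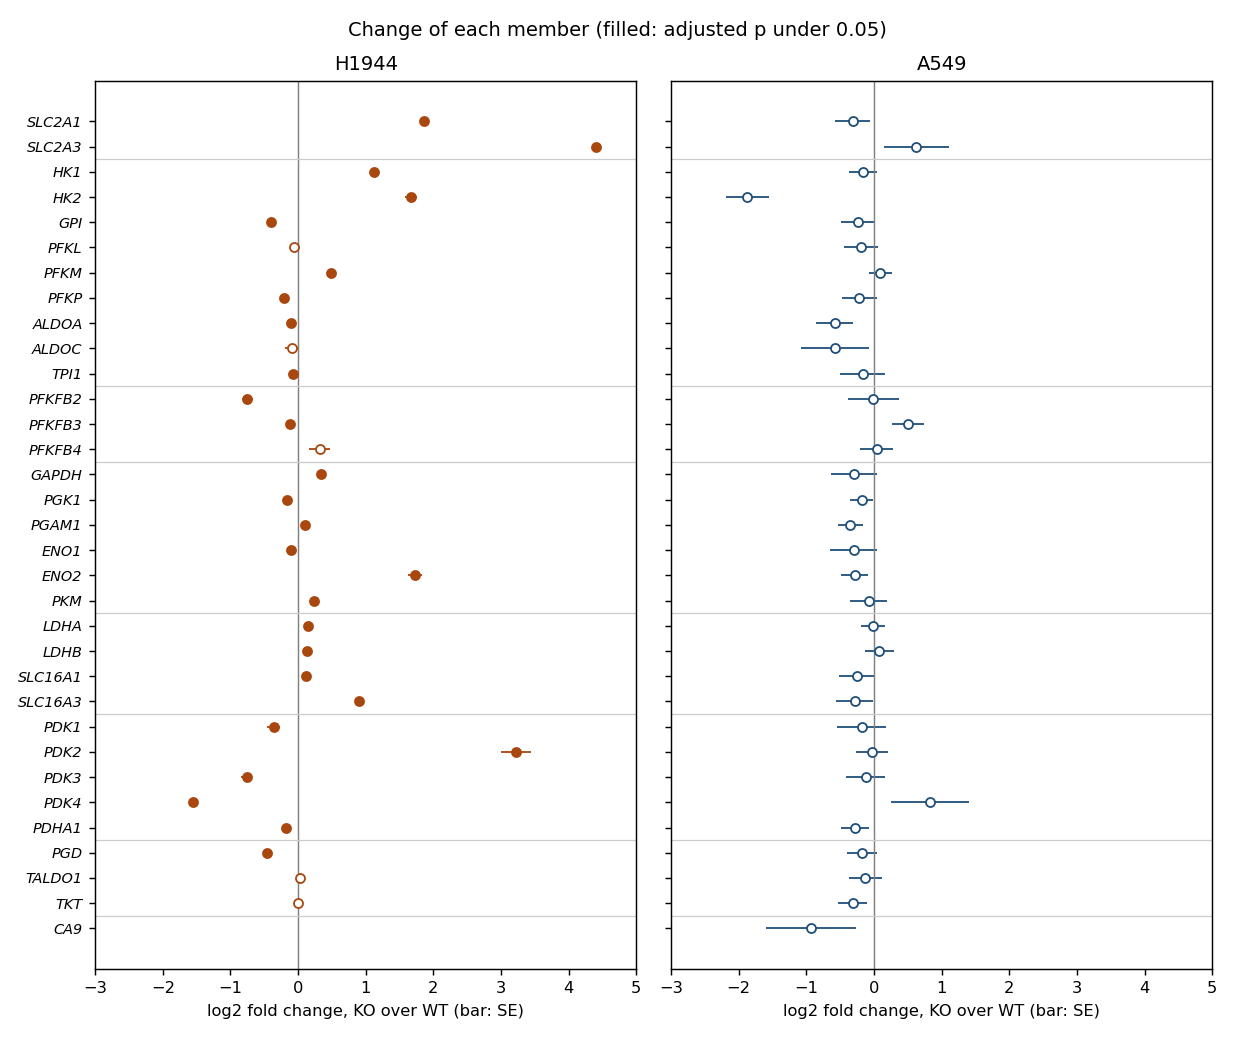
Change of each member, KO over WT, on the log2 scale in H1944 (left) and A549 (right), with bars for the standard error and filled points for an adjusted p under 0.05 (edgeR). Grey lines part the roles. In H1944, SLC2A3 and PDK2 lie farthest right at 4.41 and 3.22 and PDK4 farthest left at -1.55. No A549 point is filled, and CA9 was too low to be tested in H1944.

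Both glucose transporters rose in H1944. SLC2A3 (chromosome 12, 7919230 to 7936187), which encodes GLUT3, a high-affinity transporter best known in neurons, measured 17.1 and 16.02 CPM in WT and 348 and 356 CPM in KO. Each KO library lay above each WT library, a 21.2-fold rise (log2 fold change 4.41, SE 0.0486, adjusted p 3.9e-25). SLC2A1 (chromosome 1, 42925353 to 42958868), which encodes GLUT1, the common transporter of proliferating cells, measured 223 and 214 CPM in WT and 806 and 791 CPM in KO, again with no overlap, a 3.65-fold rise (log2 fold change 1.87, SE 0.0342, adjusted p 2.1e-21). The neighbouring SLC2A14, a near-identical copy of SLC2A3 whose reads the authors' counting may have split, measured 0.0886 and 0.191 CPM in WT and 2.46 and 0.637 CPM in KO, far below SLC2A3 in each library. Per kilobase of annotated exon SLC2A1 stayed the more abundant of the pair, but SLC2A3 went from 7.23 and 7.07% to 30.6 and 31.4% of their summed level.

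**Figure D2:**
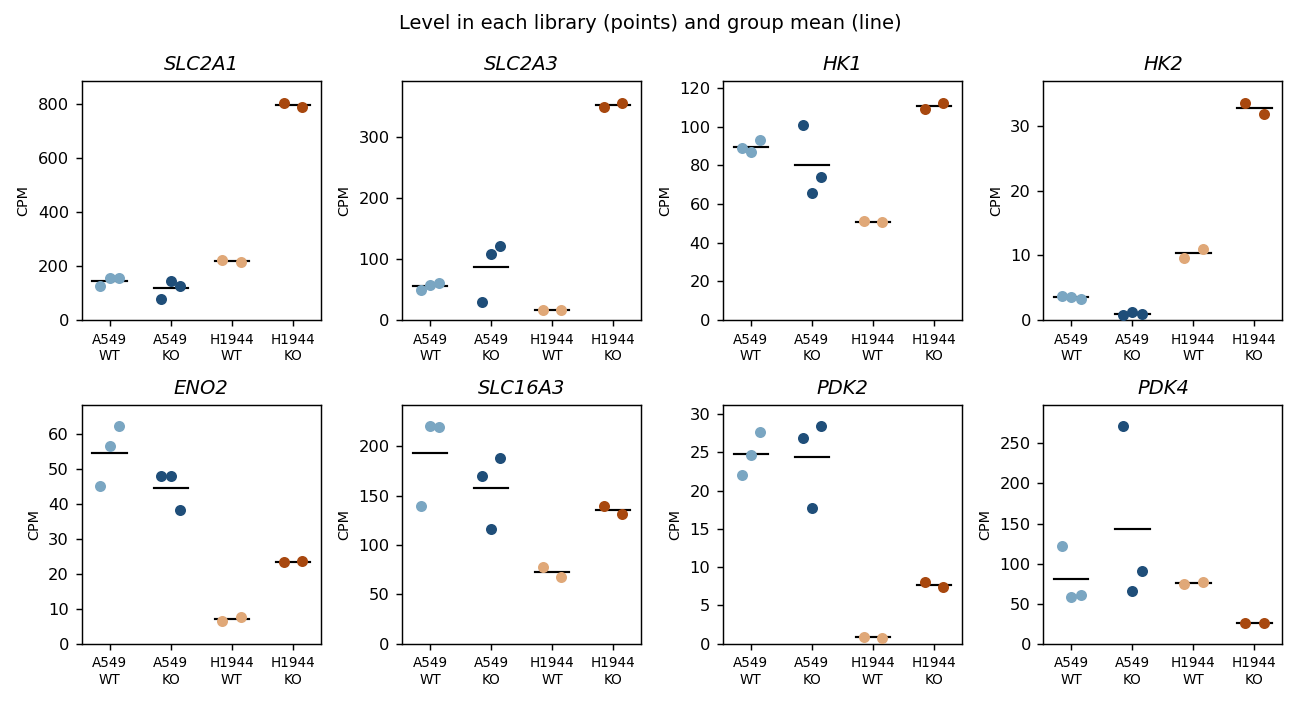
Level of 8 members in every library, in CPM on linear axes that start at 0, with points for libraries and lines for group means. A549 KO points run KO 65, 16 and 66 from the left. In H1944 the KO libraries lie above the WT libraries in each panel but PDK4, where they lie below, and in A549 KO and WT are apart only for HK2.

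The hexokinase members HK1 and HK2 rose together in H1944. HK2 (chromosome 2, 74834127 to 74893359), the inducible hexokinase of many tumours, measured 9.57 and 11.1 CPM in WT and 33.6 and 31.9 CPM in KO, a 3.18-fold rise (log2 fold change 1.67, SE 0.0918, adjusted p 5.7e-13). HK1, the widely expressed form, measured 51.3 and 50.5 CPM in WT and 109 and 112 CPM in KO, a 2.17-fold rise (log2 fold change 1.12, SE 0.0455, adjusted p 2.8e-15). In neither gene did WT and KO libraries overlap. HKDC1, a hexokinase gene outside the members, rose less, 1.45-fold (adjusted p 6.2e-11). Per kilobase it measured 25.8 and 25.5 CPM in WT and 37.3 and 37.3 CPM in KO, above HK1 and HK2 in each H1944 library. Among the other preparatory enzymes PFKM, the muscle-type phosphofructokinase, rose, from 89.6 and 91.7 to 126 and 127 CPM (log2 fold change 0.48, SE 0.0398, adjusted p 5.6e-10). GPI, which makes fructose 6-phosphate, measured 517 and 512 CPM in WT and 395 and 386 CPM in KO and fell (log2 fold change -0.40, SE 0.0321, adjusted p 4.1e-10). PFKP, the platelet-type phosphofructokinase, fell by 0.21 on the log2 scale (adjusted p 1.1e-05). The aldolase ALDOA and the triosephosphate isomerase TPI1 fell by 0.11 and 0.074 (adjusted p 0.00273 and 0.0315). PFKL, the liver-type phosphofructokinase, and ALDOC did not pass, at -0.067 ± 0.0476 and -0.098 ± 0.0944 (log2 fold change ± SE).

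The 3 regulators that set the level of fructose 2,6-bisphosphate, the activator of phosphofructokinase, had no rise that passed. PFKFB2, the heart-type enzyme, measured 31.0 and 32.4 CPM in WT and 19.8 and 17.9 CPM in KO and fell (log2 fold change -0.75, SE 0.0808, adjusted p 4.2e-08). PFKFB3, whose kinase activity outweighs its phosphatase, measured 72.3 and 76.9 CPM in WT and 68.9 and 67.6 CPM in KO and fell by 0.13 (adjusted p 0.0246). PFKFB4 measured 7.26 and 6.10 CPM in WT and 9.33 and 7.38 CPM in KO and did not pass (adjusted p 0.0835).

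In the later steps ENO2 rose well above the rest. ENO2 (chromosome 12, 6914580 to 6923697), the neuron-specific enolase, measured 6.60 and 7.58 CPM in WT and 23.3 and 23.6 CPM in KO, a 3.31-fold rise (log2 fold change 1.73, SE 0.106, adjusted p 4.0e-12). Its KO libraries were higher without overlap, yet ENO1, the main enolase, held 5049.7 and 5023 CPM in WT and 4729 and 4642 CPM in KO, a fall of 0.10 on the log2 scale (adjusted p 0.0015). ENO2 was 0.0993 and 0.115% of the enolase level per kilobase in WT and 0.373 and 0.385% in KO. GAPDH, often taken as a reference gene, measured 8454 and 8666 CPM in WT and 10953 and 10590.0 CPM in KO and rose (log2 fold change 0.33, SE 0.0266, adjusted p 3.7e-10). PKM, pyruvate kinase, and PGAM1, phosphoglycerate mutase, rose by 0.23 and 0.11 on the log2 scale (adjusted p 1.3e-07 and 0.00887), and PGK1, phosphoglycerate kinase, fell by 0.16 (1.4e-04). GAPDH, PGAM1 and LDHA have many processed pseudogenes, and the handling of reads with several alignments was not given in the sources used here.

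The 4 genes of lactate and its transport rose in H1944 by edgeR, most of all the exporter. SLC16A3 (chromosome 17, 82217934 to 82240086), which encodes MCT4, a lactate exporter of glycolytic cells, measured 77.8 and 67.2 CPM in WT and 139.5 and 131 CPM in KO, a 1.87-fold rise (log2 fold change 0.90, SE 0.0586, adjusted p 1.4e-08). SLC16A1, which encodes the bidirectional carrier MCT1, rose by 0.12 on the log2 scale (adjusted p 0.0154) but did not pass by DESeq2 (adjusted p 0.09). LDHA and LDHB, the lactate dehydrogenase subunits, rose by 0.15 and 0.13 (adjusted p 7.0e-05 and 0.00102), and LDHA kept 31.6 and 30.5% of their summed per-kilobase level in WT and 31.2 and 31.3% in KO. The annotated span of SLC16A3 overlaps CSNK1D, which rose by 0.51.

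The pyruvate dehydrogenase kinases, which switch off the entry of pyruvate into the citric acid cycle, moved in opposite directions. PDK2 (chromosome 17, 50094737 to 50112152) measured 0.841 and 0.810 CPM in WT and 8.03 and 7.44 CPM in KO, a 9.31-fold rise (log2 fold change 3.22, SE 0.223, adjusted p 3.0e-11). PDK4 (chromosome 7, 95583499 to 95596516), a kinase induced by fasting and fatty acids, measured 74.2 and 77.0 CPM in WT and 25.8 and 25.7 CPM in KO, a 2.93-fold fall (log2 fold change -1.55, SE 0.0573, adjusted p 5.1e-16). PDK3 measured 27.3 and 27.2 CPM in WT and 16.1 and 16.1 CPM in KO and fell by 0.76 on the log2 scale (adjusted p 3.9e-08). PDK1, a hypoxia target, measured 18.8 and 21.2 CPM in WT and 15.5 and 15.6 CPM in KO and fell by 0.36 (0.0019), and PDHA1, the kinases' substrate, fell by 0.17 (5.3e-04). SAMD14, whose annotated span overlaps that of PDK2, measured 0.576 and 0.477 CPM in WT and 4.97 and 3.89 CPM in KO and rose by 3.06 on the log2 scale (adjusted p 8.4e-09). Since the strand setting of the counting was not given in the sources used here, reads of PDK2 and SAMD14 cannot be told apart where they overlap. PDK4 was 62.6 and 63.2% of the 4 kinases' per-kilobase level in WT and 43.0 and 43.4% in KO, and PDK2 went from 0.656 and 0.614% to 12.4 and 11.6%.

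**Figure D3:**
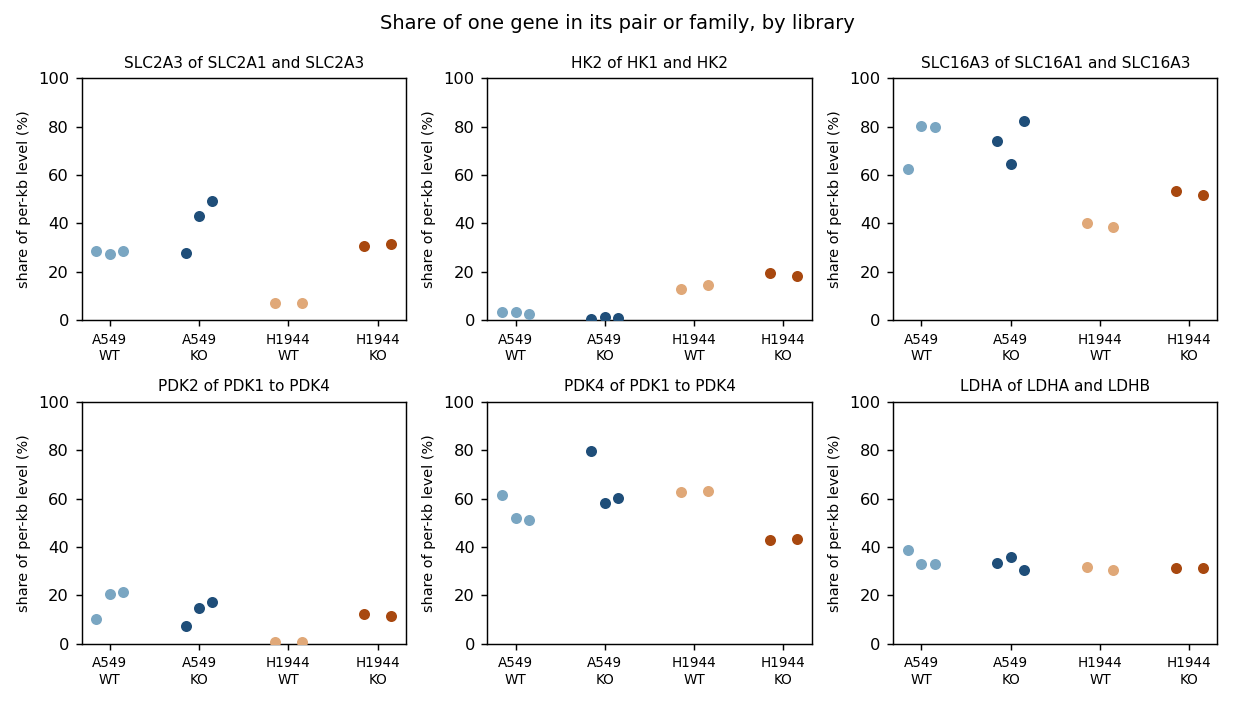
Share of SLC2A3, HK2, SLC16A3, PDK2, PDK4 and LDHA in the summed level of their gene pair or family, in percent, from CPM per kilobase of GENCODE exon. Each point is a library, and the HK2 share is of HK1 and HK2 alone. In H1944 the SLC2A3 share rises from about 7.23% to 31.4%, while the LDHA share stays between 30.5% and 31.6%.

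Of the 3 pentose phosphate members, PGD passed the test. PGD, which makes ribulose 5-phosphate and NADPH, measured 1289.7 and 1315 CPM in WT and 944 and 949 CPM in KO and fell (log2 fold change -0.46, SE 0.0293, adjusted p 7.1e-12). TALDO1 and TKT, transaldolase and transketolase of the non-oxidative branch, did not pass, at 0.025 ± 0.0328 and -0.0069 ± 0.0289 (log2 fold change ± SE). CA9, a carbonic anhydrase induced by hypoxia, had 7 and 10 counts in WT and 2 and 2 in KO and was not tested.

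Several H1944 calls of small size depend on single libraries or on the processing. TPI1, PFKFB3 and PGAM1 did not pass without KO 1 (adjusted p 0.226, 0.0554 and 0.0872) or without KO 2 (0.226, 0.137 and 0.067). ENO1 and ALDOA did not pass without KO 2 (0.11 and 0.135), and TPI1, PFKFB3 and SLC16A1 did not without WT 2 (0.0683, 0.22 and 0.211). With all libraries kept, PFKFB3 did not pass under upper-quartile scaling or DESeq2 (0.0742 and 0.138), nor TPI1 under upper-quartile scaling or with no filter on low counts (0.175 and 0.066). PFKFB4 passed as higher without KO 2 (0.0242) or WT 1 (0.0275), and PFKL as lower without WT 2 (0.0121). In a fit of all 10 libraries, whose spread is that of both lines, 6 members remained called in H1944. They were SLC2A1, SLC2A3, HK1, HK2, ENO2 and PDK2, while PDK4 (adjusted p 0.141) and SLC16A3 (0.0834) did not pass. Over all genes that fit called 2522 of 17677 in H1944, so the number of members called says little by itself.

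Promoter stretches that hold a match are shown for some genes that rose in H1944, since these moved together and the study's title concerns G-quadruplexes. Upstream sequence came from RefSeq (GRCh38.p14), which held 30 of the 33 members. SLC2A3, PFKFB2 and SLC16A1 were not among them. The 250 bases before the start site of each gene (its listed start, the table's top entry where it has several) were searched on both strands for ACGTG, the core of hypoxia response elements, for its other form GCGTG, for the E-box CACGTG, which contains the former, and for 4 runs of at least 3 G with loops of 1 to 7 bases, the usual G-quadruplex pattern. ACGTG was held by 11 of 30 members (36.7%), beside 18.7% of 27305 promoters, and the G-quadruplex pattern by 12 (40.0%), beside 22.6%. GCGTG was held by 10 (33.3%, beside 31.9%) and CACGTG by 3 (10.0%, beside 6.49%). The 27305 promoters were neither restricted to expressed genes nor matched for base composition, so no share is read as particular to these members. Among the 5 matched members that rose at least 2-fold, 2 held ACGTG and 2 the G-quadruplex pattern, so neither was shared by all of them. HK2 held both, and the counted windows of HK1 and PDK2 held none of these patterns. The stretches below were picked for their matches. G-quadruplex patterns in windows of HK2, PDK2 and SLC16A3 are not printed. Capitals mark the runs of C that form the G-quadruplex pattern on the other strand of SLC2A1, the hypoxia core on the other strand (CACGT) at the upstream start of HK2, both E-boxes before its downstream start, ACGTG in ENO2, the E-box before a downstream start of PDK2 and ACGTG before a downstream start of SLC16A3. The stretches at downstream starts lie outside the windows counted above, and the counted windows of PDK2 and SLC16A3 hold no ACGTG. Each is written 5′ to 3′ on the gene's strand. Only HK2's second stretch is a whole window, since no annotated exon lies in it.
SLC2A1, chr1:42959000-42959027, minus strand: CCCCggccactCCCCtcaCCCCCtCCCC
HK2 upstream start, chr2:74834066-74834095, plus strand: caatgggcgtgcgCACGTcactgatccgga
HK2 downstream start, chr2:74834920-74835169, plus strand: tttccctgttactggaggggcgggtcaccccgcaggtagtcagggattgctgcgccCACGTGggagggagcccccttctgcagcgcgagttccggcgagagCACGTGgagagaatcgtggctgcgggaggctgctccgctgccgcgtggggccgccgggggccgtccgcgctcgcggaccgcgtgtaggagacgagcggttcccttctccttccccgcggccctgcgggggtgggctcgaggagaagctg
ENO2, chr12:6914449-6914478, plus strand: cacccgcgctcgtACGTGcgcctccgccgg
PDK2 downstream start, chr17:50095210-50095239, plus strand: cccgggggaagcCACGTGccggggcggaag
SLC16A3 downstream start, chr17:82228974-82229003, plus strand: ACGTGcgcgggggACGTGccgcgccagcga
These matches describe the letters in the windows, and no measurement of binding or of DNA structure enters this text.

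In A549 no member passed the test over all genes (smallest adjusted p 0.505), where 0.00633% of 15806 genes did. By edgeR 1 of the 33 had an unadjusted p under 0.05, beside 5.66% of all genes, and DESeq2 called that same gene, HK2, and no other member. Of the 33, 27 had a log2 fold change below 0, with a median of -0.18, beside 0.018 over all genes. WT and KO libraries were apart for 4 members, PFKFB3 higher and HK2, PGK1 and PGAM1 lower, beside 10.7% of all genes (6.11% higher and 4.6% lower). The libraries varied widely. The biological coefficient of variation came to 39.01%, where H1944 had 4.74%, so a member that did not pass is not shown to be unchanged.

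HK2 had the smallest p of the members in A549, in the opposite direction to H1944. It measured 3.69, 3.61 and 3.22 CPM in WT 1, 2 and 3 and 1.17, 0.711 and 0.977 CPM in KO 16, 65 and 66, so each KO library was below each WT library, with 71 to 82 counts in WT and 16 to 25 in KO (log2 fold change -1.87, SE 0.322, adjusted p 0.505). By DESeq2, which called 125 of all genes, its adjusted p was 9.7e-04, while limma-voom did not call it. Within the sets its log2 ratio was -1.79, -1.22 and -1.40 for KO 65, KO 16 and KO 66. PFKFB3 measured 625, 399 and 398 CPM in WT 1, 2 and 3 and 666, 712 and 631 CPM in KO 16, 65 and 66 (log2 fold change 0.50, SE 0.234, adjusted p 0.926). WT 1 was close to the KO libraries there, and within the sets the ratios were 0.19, 0.74 and 0.66. PGAM1 measured 472, 569 and 565 CPM in WT 1, 2 and 3 and 454, 369 and 438 CPM in KO 16, 65 and 66 (adjusted p 0.957), with ratios of -0.36, -0.32 and -0.37. PGK1 measured 656, 705 and 694 CPM in WT 1, 2 and 3 and 636, 575 and 599 CPM in KO 16, 65 and 66 (adjusted p 0.995), with ratios of -0.19, -0.14 and -0.22.

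Neither transporter passed in A549. SLC2A3 measured 49.3, 57.6 and 61.4 CPM in WT 1, 2 and 3 and 108, 30.1 and 122 CPM in KO 16, 65 and 66 (log2 fold change 0.63, SE 0.477, adjusted p 0.995), so KO 16 and KO 66 were above and KO 65 below each WT library. Its ratios within the sets were -0.70, 0.86 and 1.02 for KO 65, KO 16 and KO 66. SLC2A1 measured 126, 157 and 155 CPM in WT 1, 2 and 3 and 147, 78.9 and 127 CPM in KO 16, 65 and 66 (log2 fold change -0.31, adjusted p 0.995), with KO 65 lowest. Of both transporters' per-kilobase level SLC2A3 made up 28.5, 27.2 and 28.7% in WT 1, 2 and 3 and 42.9, 27.9 and 49.4% in KO 16, 65 and 66. PDK4 measured 121, 58.1 and 61.2 CPM in WT 1, 2 and 3 and 65.3, 271 and 91.3 CPM in KO 16, 65 and 66 (adjusted p 0.995), high in WT 1 and KO 65, and its ratios were 1.16, 0.13 and 0.61.

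Among the abundant enzymes GAPDH, ENO1 and TPI1 were lowest in WT 1, KO 65 and KO 16, of both genotypes and both sets. GAPDH measured 5251, 9142 and 8961 CPM in WT 1, 2 and 3 and 5942, 4692 and 8394 CPM in KO 16, 65 and 66. ENO1 measured 2236, 3543 and 3542 CPM in WT 1, 2 and 3 and 2410.2, 1649.9 and 3504 CPM in KO 16, 65 and 66 and TPI1 931, 1759 and 1740.2 CPM in WT 1, 2 and 3 and 1227, 1001 and 1715 CPM in KO 16, 65 and 66. The members' share of all counts was 2.45%, 2.93% and 2.92% in WT 1, 2 and 3 and 2.12%, 2.34% and 2.89% in KO 16, 65 and 66. Over the 33, the ratios within the sets had medians of -0.16, -0.32 and -0.16 in KO 65, KO 16 and KO 66. Within the sets 12 members were below 0 in each KO library and 2, PFKFB3 and PDK4, were above. The same count was not made over all genes, and the ratios of KO 16 and KO 66 share WT 2 and WT 3. Nothing is therefore read from these counts. CA9, at 1.41, 2.55 and 3.40 CPM in WT 1, 2 and 3 and 2.49, 0.977 and 0.400 CPM in KO 16, 65 and 66, was lowest in KO 66 (adjusted p 0.995).

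**Figure D4:**
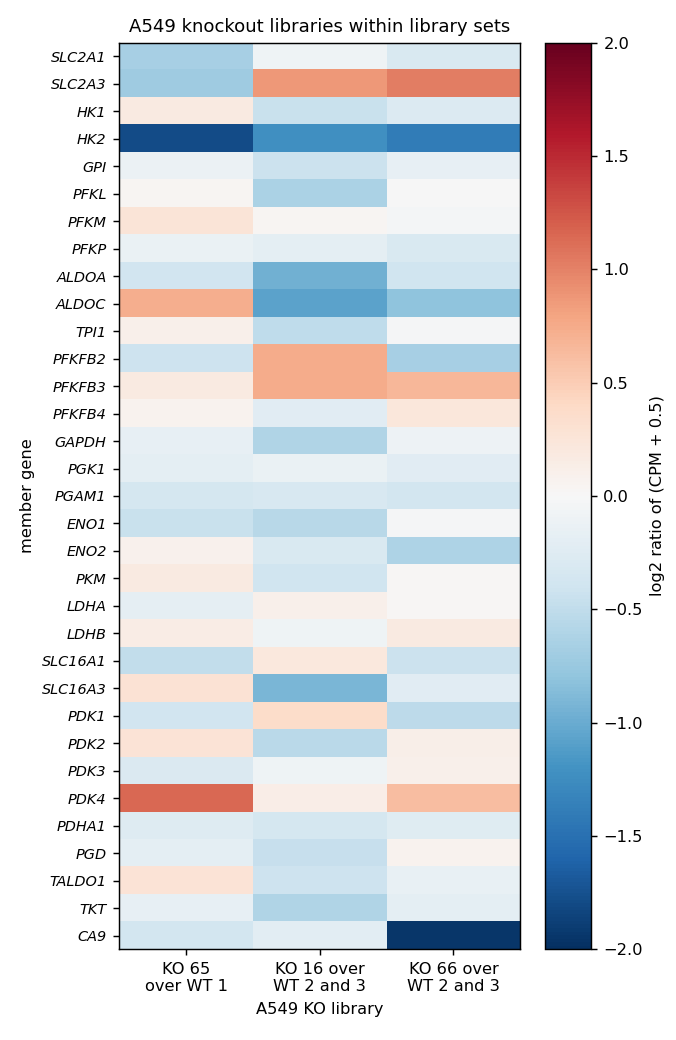
Log2 ratio of CPM + 0.5 for each member (rows, ordered by role) in each A549 KO library against the WT libraries of its own set (columns), with red for higher and blue for lower in KO. HK2 is blue in each column, at -1.79, -1.22 and -1.40, whereas SLC2A3 is blue in KO 65 and red in KO 16 and KO 66.

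The difference between the lines was tested as the A549 change minus the H1944 change in 1 fit of the 10 libraries. It passed for 6 of 33 members, all negative, where 2.85% of all genes passed as negative, 4.1% as positive and 6.95% in all. On the log2 scale it was -3.82 (SE 0.670, adjusted p 0.0105) for SLC2A3, -3.57 (SE 0.313, adjusted p 4.8e-04) for HK2 and -3.27 (SE 0.364, adjusted p 0.00128) for PDK2. These 3 genes differed most between the lines' responses. It was -2.22 (SE 0.343, adjusted p 0.00602) for SLC2A1, -2.04 (SE 0.280, adjusted p 0.00333) for ENO2 and -1.30 (SE 0.276, adjusted p 0.0251) for HK1. SLC16A3 at -1.22 (SE 0.390, adjusted p 0.105) and PDK4 at 2.38 (SE 0.800, adjusted p 0.12) did not pass, although DESeq2 gave both an adjusted p under the threshold (0.0286 and 0.0218). SLC2A3 did not pass without H1944 WT 1 or WT 2 (adjusted p 0.0683 and 0.0755). HK1 did not without A549 WT 2 or WT 3 (0.0588 and 0.0655), nor without H1944 WT 1, WT 2, KO 1 or KO 2 (0.122, 0.13, 0.108 and 0.118). Without A549 WT 1, SLC16A3 (0.0195) and PFKFB3 (0.0144) passed, PFKFB3 as positive. With the A549 library set as a term PDK4 and PFKFB3 passed as positive (adjusted p 0.00302 and 0.0405).

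**Figure D5:**
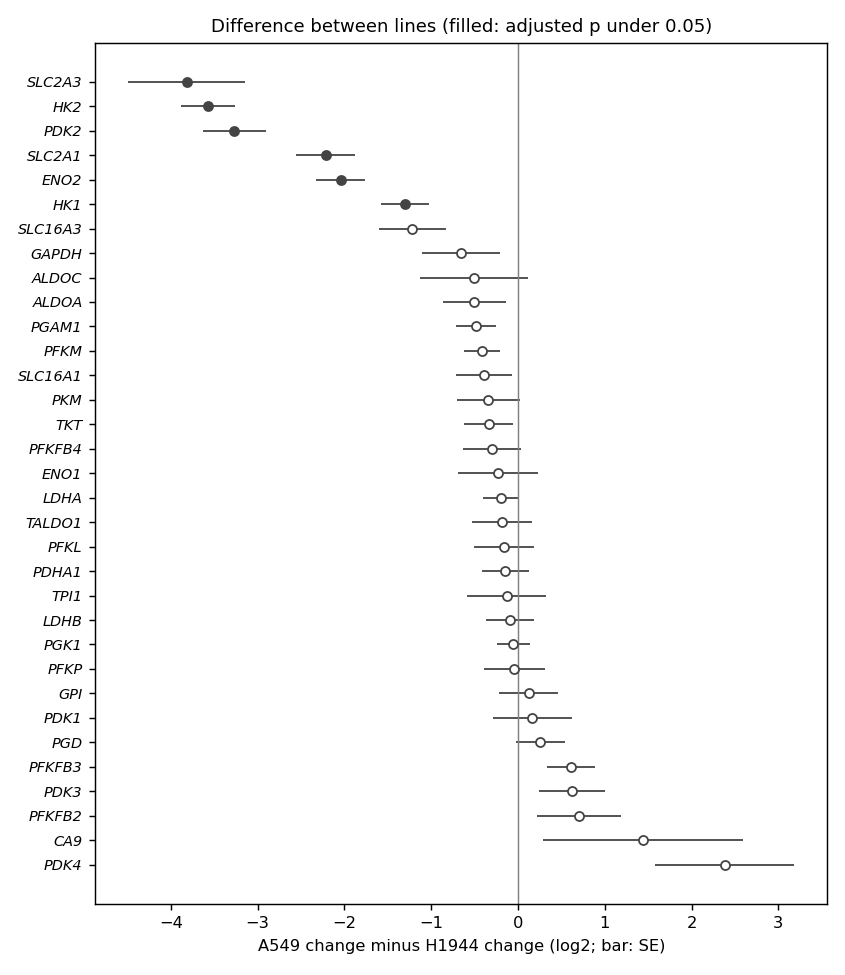
Difference between the lines for each member, A549 change minus H1944 change on the log2 scale, with bars for the standard error and filled points for an adjusted p under 0.05. The filled points run from -3.82 for SLC2A3 to -1.30 for HK1. PDK4 lies farthest right at 2.38 and is open.

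A list of 57 further genes of glucose transport, glycolysis, pyruvate and pentose phosphate handling was described in the same way. In H1944, 46 were tested, 17 rose and 20 fell, with a median of -0.076, beside 33.2% and 33.9% of all genes. TIGAR, a p53 target that lowers fructose 2,6-bisphosphate, measured 18.8 and 20.2 CPM in WT and 90.7 and 93.4 CPM in KO and rose (log2 fold change 2.24, SE 0.0597, adjusted p 1.6e-18). MPC1 and MPC2, the subunits of the mitochondrial pyruvate carrier, fell together, MPC2 from 199.9 and 195 to 58.7 and 55.6 CPM (log2 fold change -1.79, SE 0.0417, adjusted p 1.5e-19) and MPC1 from 14.4 and 15.4 to 5.00 and 5.60 CPM (log2 fold change -1.49, SE 0.133, adjusted p 2.2e-09). GPD1, a glycerol 3-phosphate dehydrogenase, fell by 4.08 on the log2 scale. CA12, a membrane carbonic anhydrase, fell by 1.61. SLC2A13, the proton myo-inositol symporter gene, fell by 1.596. Of the other transporters of the SLC2A family, SLC2A6 and SLC2A8 rose 2.30-fold and 2.32-fold (adjusted p 9.3e-08 and 2.3e-08). SLC2A9 fell by 0.80 on the log2 scale (adjusted p 4.7e-04), and SLC2A4 and SLC2A12 did not pass (adjusted p 0.311 and 0.66). SLC2A10, at 0.0443 and 0.0477 CPM in WT and 1.76 and 2.18 CPM in KO, rose (adjusted p 6.7e-08). SLC16A4, a monocarboxylate transporter gene, and ENO3, the muscle enolase, rose by 2.90 and 1.58. BSG, which encodes basigin, the chaperone of MCT1 and MCT4, fell by 0.65 (adjusted p 9.4e-14), opposite to SLC16A3. TXNIP, an inhibitor of glucose uptake, measured 28.5 and 29.8 CPM in WT and 12.6 and 12.0 CPM in KO and fell by 1.24 (adjusted p 3.2e-11). In A549 none of the 41 tested passed by edgeR, and 0 passed by DESeq2. By edgeR 6 had an unadjusted p under 0.05, beside 5.66% of all genes. The median was -0.035, beside 0.018 over all genes.

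Of 16 regulators of these genes, 7 rose and 7 fell in H1944. HIF1A and EPAS1, the oxygen-regulated subunits of the hypoxia-inducible factors, rose. HIF1A measured 202 and 200.4 CPM in WT and 369 and 381 CPM in KO (log2 fold change 0.90, adjusted p 1.2e-15) and EPAS1 185 and 178 CPM in WT and 375 and 379 CPM in KO (1.05, 9.2e-17). MYC rose by 0.45 (adjusted p 3.1e-10). MLXIPL, which encodes the glucose-responsive factor ChREBP, fell by 1.56. EGLN3, a HIF prolyl hydroxylase and hypoxia target, fell by 1.98. NFE2L2, which encodes NRF2, fell by 0.41 (adjusted p 1.6e-09). In A549, HIF1A measured 374, 119 and 121 CPM in WT 1, 2 and 3 and 227, 328 and 95.2 CPM in KO 16, 65 and 66, high in WT 1, KO 65 and KO 16, and MYC measured 179, 178 and 174 CPM in WT 1, 2 and 3 and 122, 127 and 122 CPM in KO 16, 65 and 66, lower in each KO library (adjusted p 0.673). Of 18 hypoxia targets outside the members, 11 rose and 5 fell in H1944, with a median of 0.36, where 33.2% of all genes rose and 33.9% fell, with a median of -0.0065. AK4, ANGPTL4 and P4HA2 rose by 1.94, 1.58 and 1.51, while CA12 and EGLN3, which this list shares with the others, fell. Of 11 NRF2 targets, 2 rose and 9 fell, with a median of -0.42, against the same shares over all genes. Nothing particular to either list is read from these counts. AKR1B10 fell by 3.39, GCLC fell by 1.03, and NQO1 rose by 1.08. In A549 the medians of the regulators, hypoxia targets and NRF2 targets were 0.078, -0.056 and -0.11. None of their genes passed there by edgeR, and DESeq2 called 1 (MYC), 0 and 0. An unadjusted p under 0.05 was found for 1, 1 and 1, beside 5.66% of all genes.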

How the data were processed

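Per the submitters' processing notes, the authors' tools were Trim Galore 0.5.0, HISAT2 2.1.0, featureCounts 1.6.4 and DESeq2, with build hg38. Annotation, strand and the treatment of multi-mapping reads were not given in the sources used here. The deposited values are raw counts per symbol, 1 table per line, with no rows outside genes. Genes were kept by filterByExpr (minimum count 10), scaled by TMM and tested in edgeR 4.0.16 (R 4.3.3) by its quasi-likelihood test with robust settings, within each line, over the 6 A549 and the 4 H1944 libraries. An interaction term over all 10 libraries tested the difference between lines. Adjusted p-values (Benjamini-Hochberg over all tested genes, threshold 0.05) are from edgeR unless another tool is named. Standard errors (SE) come from dividing each log2 change by the root of its F statistic. CPM uses each line's TMM sizes, and per-kilobase values use a scaling over all 10 libraries and exon lengths of GENCODE basic annotation, which may not be the authors'. Ratios within the A549 sets add 0.5 CPM. Replicate numbers pair no samples in A549, whose KO numbers differ. In H1944, deviations of equally numbered libraries correlated at 0.021, which does not show pairing. Alternatives were DESeq2 1.42.0, limma-voom (3.58.1), other scalings, no filter, single libraries left out, the replicate block, the library set and a joint fit. The fits were also run on data simulated from their own fitted spread, which cannot show how well they suit these libraries. Members, lists and tests were chosen with earlier results of these data known. All members are named. Other listed genes are named where called in H1944 at 2-fold or more with a mean of at least 5 CPM (the 8 largest changes per list), beside a short set named whatever their values, 1 of which is not reported here. EPCAM, CDH1, KRT8, KRT18, SAMD14, CSNK1D, HKDC1, SLC2A4, SLC2A6, SLC2A8, SLC2A9, SLC2A10 and SLC2A12 were named after their values were seen. Each count of 0 allows up to 3 counts.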

Additional observations from a re-analysis of the deposited data

Results flagged for a closer look

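The response to knockout differed between the lines in 6 members by the interaction test, as A549 change minus H1944 change on the log2 scale. The values were -2.22 for SLC2A1, -3.82 for SLC2A3, -1.30 for HK1, -3.57 for HK2, -2.04 for ENO2 and -3.27 for PDK2. Line and medium cannot be told apart in this contrast. The A549 library sets each hold both genotypes, and with the library set as a term all 6 passed (adjusted p at most 0.00721). The same term took the calls over all genes from 1228 to 2759, so passing under it is a loose check. In A549, KO 16 held 14.2% of its counts in ribosomal RNA genes, against 6.45% to 7.18% in the rest of its set. The term does not cover that difference, and its part in these 6 values was not tested. WT and KO libraries were apart in both lines for HK2, PFKFB3 and PGAM1, in opposite directions, and for PGK1, lower in KO in both. Of these the difference passed for HK2. Over all genes the libraries were apart in 82.5% in H1944 and 10.7% in A549, so being apart in both lines says little by itself. Groups of 2 or 3 libraries are too small for a check of single outlying libraries.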

How the results depend on the processing

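The number of members called in H1944 was 27, and it was 6 with all 10 libraries in one fit, which also took the calls over all genes from 11164 to 2522. With the replicate block it was 27, and the block changed no member's call. For A549, no paired analysis was possible because its KO columns and WT columns share no replicate number. In A549, 0 members were called by edgeR within the line and 0 by limma-voom. DESeq2 and the joint fit each called 1, HK2 in both cases, and HK2 passed in 2 of 14 alternatives. Over all genes edgeR called 1, DESeq2 125 and the joint fit 16. Over all genes the difference between lines was called for 1228, for 2318 by DESeq2, for 2759 with the library set as a term and for 397 to 2892 with 1 library left out. No called member changed sign under any alternative run. Of 352 member values under alternatives in H1944, 37 lost and 3 gained a call, 21 of the losses in the joint fit. For the difference between lines 8 of 528 lost and 6 gained a call, and in A549 2 of 462 gained 1. The biological coefficient of variation was 39.01% in A549 and 4.74% in H1944, and the part of depth in the precision was not tested.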
